A study of Mus musculus with 9 samples.

Results

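The 10 genes described here belong to the collagen secretion machinery and the endoplasmic reticulum (ER) stress response, and their transcripts were followed through the formation of the mouse cornea. They are *Creb3l1*, *Creb3l2*, *Xbp1*, *Atf4*, *Ddit3*, *Hspa5*, *Sec23a*, *Sec24d*, *Mia2* and *Mia3*, 10 of the 19369 genes listed in at least 1 of the 9 RNA-Seq samples, found by symbol. *Creb3l1* was picked because its FPKM (fragments mapped to a gene, scaled to its transcript length and to the library size) rises in these samples. It was thus selected on the same values that are given below, and its stage differences are described without a test. The samples came from wild-type mouse embryos of the strain C57BL/6, 3 per stage. At E10.5 each sample was periocular neural crest (pNC), the migratory mesenchyme around the early eye, pooled from 26 eyes, and dispase had been used to free it of ectoderm, lens vesicle and optic cup. At E14.5 each sample held 18 pooled corneas and at E16.5 it held 12 corneas cut at the limbus, so the corneal samples also hold epithelium. Stage and tissue makeup therefore cannot be told apart, and in such bulk samples neither can fewer cells of a type and less RNA per cell. Total expected counts per sample ran from 8745161 to 9069023.

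Procollagen is a long, rigid protein that is folded in the ER by dedicated chaperones and leaves in carriers formed by the COPII coat, of which SEC23 and SEC24 make the inner layer. TANGO1, the product of *Mia3*, and its partner cTAGE5, encoded at the *Mia2* locus, load procollagen at ER exit sites. CREB3L1 and CREB3L2 are transcription factors held in the ER membrane and released by Golgi proteases, known from bone and cartilage as activators of secretory genes. XBP1, ATF4 and DDIT3 are transcription factors of the unfolded protein response (UPR), and HSPA5 (BiP) is the ER chaperone whose transcript is its usual readout. Keratocytes, the neural crest-derived cells of the stroma, lay down the collagen fibrils of the cornea.

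Tests were made with edgeR's quasi-likelihood test on 14771 genes with Benjamini-Hochberg adjustment. Below, a gene rose or fell where its adjusted p was under 0.05, and it was called where it had also changed at least 2-fold (absolute log2 fold change of at least 1). Of all tested genes, 35.2% rose, 34.7% fell, 19.4% were called higher and 15.4% were called lower from E10.5 to E16.5. FPKM means are given ± SD with n = 3 pools per stage, and log2 fold changes ± standard error (SE). FPKM is scaled to the library total, of which the fibrillar collagen genes took 0.358% ± 0.0692 in pNC, 2.05% ± 0.573 in E14.5 cornea and 6.26% ± 1.09 in E16.5 cornea. The edgeR scaling (TMM) corrects for such a shift: with library totals in its place, the median log2 fold change of all genes from E10.5 to E16.5 was -0.15 and not 0.0, and from E14.5 to E16.5 the share of called genes that were higher was 39.9% and not 53.3%. Markers of corneal epithelium summed to 33.2 to 44.5 FPKM in pNC, 659 to 2134 in E14.5 cornea and 5270.1 to 7623 in E16.5 cornea, and all 8 were called higher at E16.5. Those of keratocytes went from 52.0 to 59.6 FPKM, through 1347 to 3745 at E14.5, to between 4631 and 4729.8 at E16.5, and 5 of the 5 tested were called higher at E16.5. E14.5 replicate 1 had the highest sum of its stage for both lists. Summed markers of corneal endothelium stood at 3.11 ± 0.16 times their E10.5 mean at E16.5, while those of blood vessels stood at 0.227 ± 0.0465, of red blood cells at 0.153 ± 0.0535 and of muscle at 0.0596 ± 0.0127. Of the 5 corneal endothelium markers 3 were called higher and 1 lower. Called lower were 4 of 5 vessel markers, 4 of 5 red blood cell markers and 4 of 4 tested muscle markers. The other vessel marker, *Kdr*, had 26.8 ± 7.49 FPKM at E10.5 and 26.2 ± 3.96 at E16.5. The vessel sum was 29.1 ± 5.96 FPKM at E16.5. The part of these cell types in the results below was not tested.

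Among the 10 genes, *Creb3l1* stood higher at each later stage, *Creb3l2*, *Sec23a* and *Sec24d* rose from pNC to both corneal stages, *Xbp1*, *Atf4* and *Ddit3* differed by at most 0.47 on the log2 scale, and *Hspa5* fell by E16.5. Apart from *Creb3l1*, 9 entries could be tested for these genes, since the *Mia2* locus is listed under an old and a current identifier and the current one did not pass the filter on low counts. From E10.5 to E16.5, 6 of the 9 rose, where 35.2% of all genes did, and 1 fell, where 34.7% did. With the 2-fold minimum 2 of the 9 were called higher, against 19.4% of all genes. From E10.5 to E14.5, 5 of the 9 rose (28.9% of all genes did) and 2 were called (13.6%). From E14.5 to E16.5, 4 of the 9 rose and 1 fell, where 17.5% of all genes did in each direction. The 4 were *Xbp1*, *Atf4*, *Sec24d* and the older *Mia2* entry, and the gene that fell was *Hspa5*. With library totals, and likewise without E14.5 replicate 2 or without E16.5 replicate 2, 1 rose (the older *Mia2* entry) and *Hspa5* fell, and 2 rose without E16.5 replicate 3. The older *Mia2* entry was also the only one that rose with limma on log2(FPKM + 1) or log2(FPKM + 0.1). From E10.5 to E14.5, 3 rose without E10.5 replicate 2, E10.5 replicate 3 or E14.5 replicate 3. Lack of overlap between the samples of 2 stages, given below gene by gene, was common among all genes. From E10.5 to E14.5, 6 of the 9 entries did not overlap, where 61.0% of all genes did not. To E16.5 these were 7 of the 9 and 77.2%, and from E14.5 to E16.5 they were 4 of the 9 and 53.2%.

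**Figure D1:**
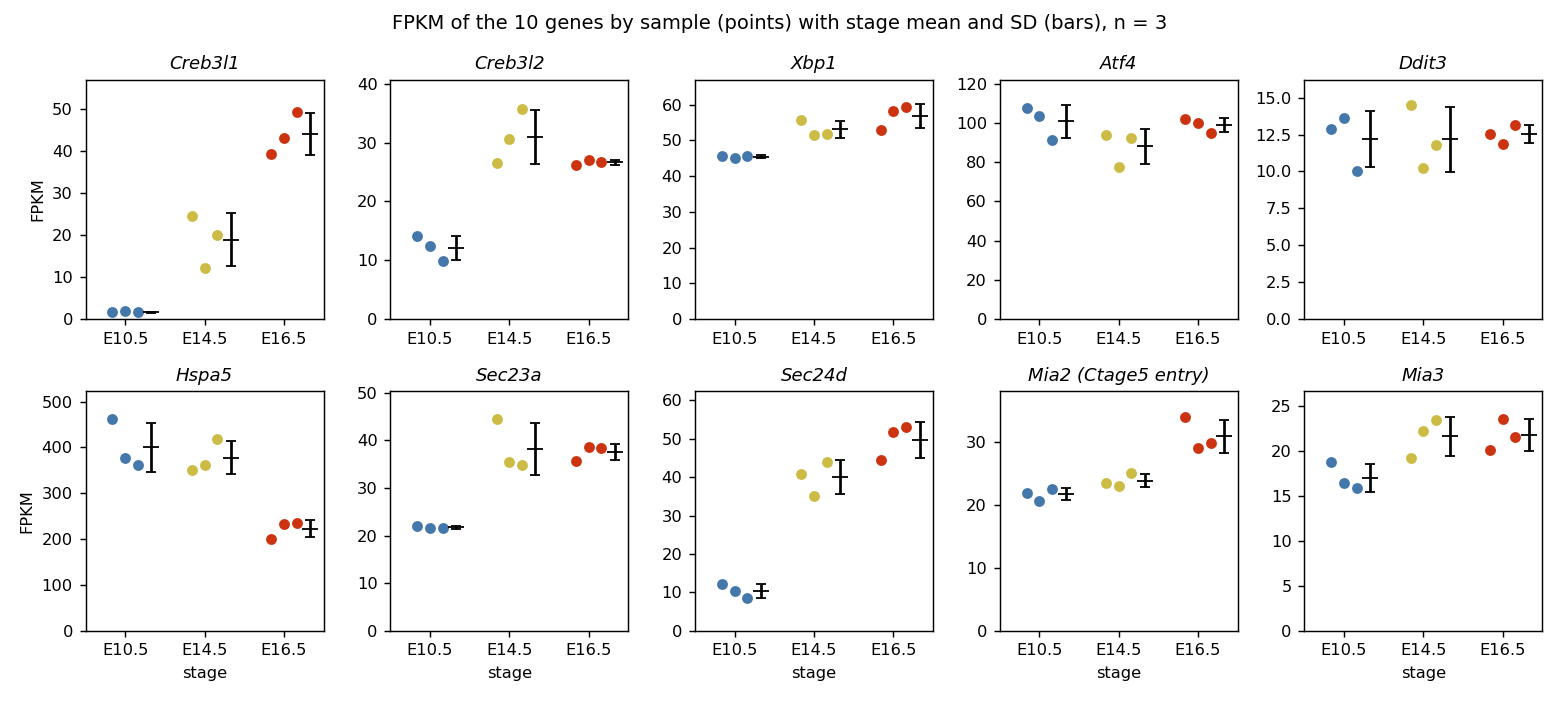
FPKM (y axis, from 0) of the 10 genes in each of the 9 samples (points) by stage (x axis), with the mean and SD of the 3 samples of a stage beside them; *Mia2* is shown by its Ctage5 entry. *Creb3l1*, *Creb3l2*, *Sec23a*, *Sec24d*, *Xbp1*, *Mia3* and the Ctage5 entry lie higher in every corneal sample than in every E10.5 sample, the last 3 by small margins. *Hspa5* lies lowest at E16.5, and the points of *Atf4* and *Ddit3* overlap between E10.5 and the later stages.

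*Creb3l1* (Entrez ID 26427, chromosome 2, 91982328 to 92024170 in GRCm38.p6) had 1.61, 1.83 and 1.59 FPKM in the 3 E10.5 samples. At E14.5 it had 24.55, 12.14 and 20.15 FPKM, and at E16.5 it had 39.43, 43.21 and 49.42 FPKM. No sample of a stage overlapped with another stage, and E14.5 varied most between pools, with replicate 2 lowest. The means were 1.68 ± 0.133, 18.9 ± 6.29 and 44.0 ± 5.04 FPKM, a ratio of 11.3 from E10.5 to E14.5 and of 2.32 from E14.5 to E16.5. Among the 10 genes it stood last at E10.5, and at E16.5 its mean FPKM had rank 5, its samples overlapping with those of *Sec24d* above it and lying above all those of *Sec23a*.

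*Creb3l2* (208647, chromosome 6, 37327255 to 37442276), the closest relative of *Creb3l1*, started from a higher level and took another course. Its FPKM was 14.08, 12.36 and 9.89 at E10.5, then 26.56, 30.66 and 35.70 at E14.5, and 26.18, 27.08 and 26.65 at E16.5. Every corneal sample lay above every pNC sample, and the 2 corneal stages overlapped. *Creb3l2* was called higher from E10.5 to E14.5 (log2 fold change 1.34 ± 0.14, adjusted p = 2.5e-05) and to E16.5 (1.29 ± 0.14, adjusted p = 1.4e-05). The difference between E14.5 and E16.5 was -0.06 ± 0.14 (adjusted p = 0.77). At E10.5 mean FPKM of *Creb3l2* was thus the higher of the pair and at E16.5 that of *Creb3l1*, with no overlap of samples at either stage.

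The rest of the family and the proteases that release it, 6 genes without *Creb3l1*, all passed the filter. From E10.5 to E16.5, 4 of the 6 rose (35.2% of all genes did) and 3 were called higher (19.4% of all genes were). The median log2 fold change was 0.95 where that of all genes was 0.0. Besides *Creb3l2* those called were *Creb3*, from 14.4 ± 1.76 to 32.1 ± 1.94 FPKM (log2 fold change 1.30 ± 0.15, adjusted p = 2e-05), and *Creb3l3*, a liver and gut member that reached only 0.877 ± 0.22 FPKM at E16.5. *Creb3l4* had 1.76 ± 0.529 FPKM at E10.5 and 0.907 ± 0.297 at E16.5 (log2 fold change -0.80 ± 0.48, adjusted p = 0.16). Of the proteases, *Mbtps1* rose from 55.0 ± 5.42 to 76.1 ± 3.39 FPKM (0.62 ± 0.11, adjusted p = 0.00042), and *Mbtps2* measured 7.3 ± 0.276 and 6.94 ± 0.182 FPKM (0.08 ± 0.08, adjusted p = 0.43).

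The profiles most like that of *Creb3l1* were sought among 10941 other genes with a mean of at least 5 FPKM at some stage, by Pearson's r of log2(FPKM + 1) over the 9 samples. The highest were *B3gnt7* (r = 0.999), a glycosyltransferase that extends keratan sulfate, *Pgap4* (0.997), *Prrc1* (0.997), *P3h3* (0.997), a member of the prolyl 3-hydroxylase family, and *Thsd4* (0.997), a microfibril-associated protein gene. *B3gnt7* had 1.92, 1.81 and 1.86 FPKM at E10.5, then 18.71, 9.69 and 16.16, and 28.33, 29.71 and 32.03 at E16.5. Each of the 5 dipped in E14.5 replicate 2 as *Creb3l1* did. The points share 3 stages, which alone give high values of r: *Col1a1* stood 14th with 0.995 and *Kdelr3* 48th with 0.992. The members stood much further down: *Sec24d* (0.976), *Xbp1* (0.958), *Sec23a* (0.933), *Creb3l2* (0.86), the Ctage5 entry of *Mia2* (0.827), *Mia3* (0.775), *Ddit3* (0.205), *Atf4* (-0.149) and *Hspa5* (-0.735).

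**Figure D2:**
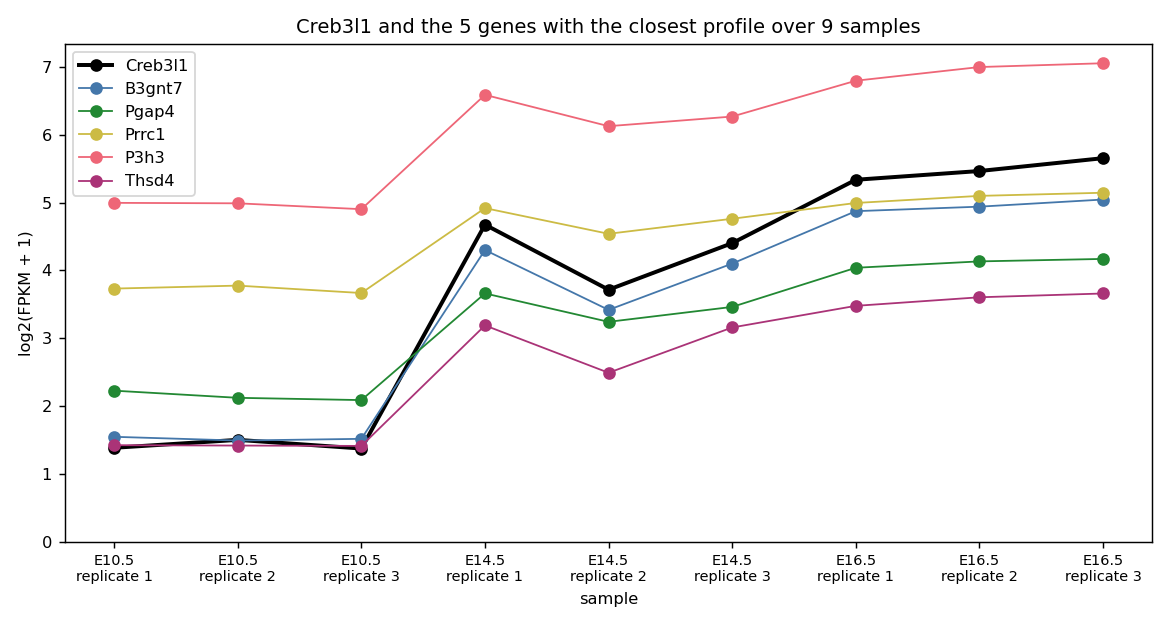
Level on the log2(FPKM + 1) scale (y axis) of *Creb3l1* (thick black line) and of the 5 genes with the highest Pearson's r with it, in the 9 samples (x axis); lines join samples only to guide the eye. The curves share low E10.5 values, a dip in E14.5 replicate 2 and their highest values at E16.5.

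The COPII coat buds carriers from the ER, and the 2 members that belong to its inner layer rose from pNC to cornea. *Sec24d* (69608, chromosome 3, 123264801 to 123365641), a cargo adaptor required for procollagen export in fish, had 12.13, 10.38 and 8.44 FPKM at E10.5. It had 40.93, 35.10 and 44.00 FPKM at E14.5, and 44.43, 51.68 and 53.05 FPKM at E16.5. The stages did not overlap, and the step from pNC to E14.5 cornea was the large one. *Sec24d* was called higher at E14.5 (log2 fold change 1.94 ± 0.15, adjusted p = 2.2e-06) and at E16.5 (2.42 ± 0.15, adjusted p = 2.6e-07) against E10.5. Between the corneal stages it rose by 0.47 ± 0.14 (adjusted p = 0.021). This step measured 0.31 (adjusted p = 0.075) with library totals, and its adjusted p was 0.085 without E14.5 replicate 2, 0.072 without E16.5 replicate 2 and 0.075 without E16.5 replicate 3. It also did not pass with limma on log2(FPKM + 1) or log2(FPKM + 0.1).

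*Sec23a* (20334, chromosome 12, 58958384 to 59012017), the subunit mutated in a human craniofacial bone disorder, had 22.05, 21.55 and 21.55 FPKM at E10.5. Its values were 44.57, 35.45 and 34.78 FPKM at E14.5, and 35.68, 38.57 and 38.44 FPKM at E16.5. Both corneal stages lay above pNC, and they overlapped with each other. *Sec23a* rose by a log2 fold change of 0.80 ± 0.10 to E14.5 (adjusted p = 6.7e-05) and of 0.94 ± 0.10 to E16.5 (adjusted p = 9.1e-06), just under the 2-fold minimum. From E14.5 to E16.5 it measured 0.14 ± 0.10 (adjusted p = 0.3), and 0.25 (adjusted p = 0.015) without E14.5 replicate 1, its highest sample.

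The paralogs of both members did not share a course: *Sec23b* fell, whereas *Sec24a* rose about as much as *Sec23a*. *Sec23b* had 29.17, 30.01 and 33.27 FPKM at E10.5 and 21.15, 20.81 and 18.92 FPKM at E16.5, and it fell by 0.46 on the log2 scale (SE 0.09, adjusted p = 0.00084). Of the other *Sec24* genes, *Sec24a* rose from 4.75 ± 0.115 to 7.86 ± 0.793 FPKM (0.88 ± 0.10, adjusted p = 1.4e-05). *Sec24c* rose little, from 42.1 ± 2.52 to 45.0 ± 1.02 FPKM (0.24 ± 0.08, adjusted p = 0.018), and *Sec24b* measured 22.5 ± 1.97 and 22.1 ± 1.48 FPKM (0.12 ± 0.08, adjusted p = 0.21).

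Ratios of FPKM within a sample do not depend on library scaling, and 9 of them were compared over the 3 stages with an exact permutation test of the one-way F statistic (two-sided in the sense that any order of stages counts). The ratio of *Sec23a* to *Sec23b* was 0.756, 0.718 and 0.648 in pNC, then 1.66, 1.16 and 1.22 in E14.5 cornea, and 1.69, 1.85 and 2.03 in E16.5 cornea. *Sec23b* was thus the more abundant paralog in every pNC sample and *Sec23a* in every corneal sample. The ratio of *Sec24d* to *Sec24c* went from 0.244 ± 0.0303 to 0.854 ± 0.0875 and 1.11 ± 0.119, a 4.54-fold change from E10.5 to E16.5. Both ratios differed between stages (exact permutation p = 0.00357, the smallest that 9 samples in 3 stages allow, and 0.00402 after Benjamini-Hochberg adjustment over the 9 ratios).

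**Figure D3:**
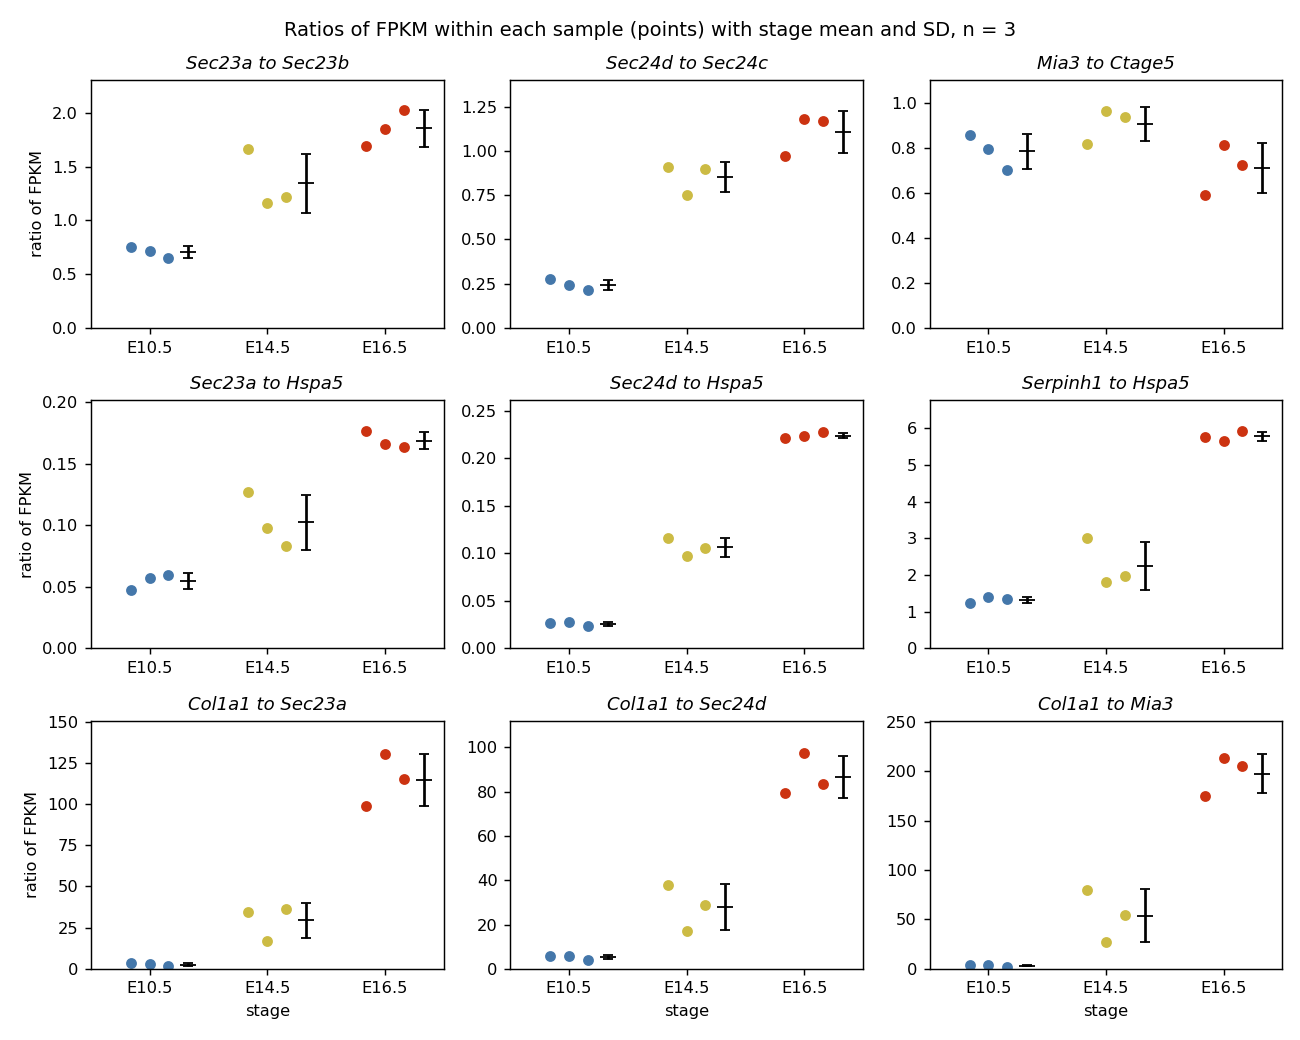
Ratio of the FPKM of 2 genes within each sample (y axis, from 0) by stage (x axis) for the 9 ratios tested; points are samples, bars the mean and SD of a stage. *Sec23a* to *Sec23b* crosses 1 between pNC and cornea, the ratios to *Hspa5* and those of *Col1a1* rise at each stage, and the ratio of *Mia3* to the Ctage5 entry overlaps between stages.

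Of the whole COPII list, 15 of 15 genes were tested, and from E10.5 to E16.5 8 rose (35.2% of all genes did) and 1, *Sec23b*, fell (34.7%). The list had 3 called higher, against 19.4% of all genes, and its median log2 fold change was 0.66. The largest change was that of *Sec16b*, which encodes a smaller relative of the ER exit site scaffold SEC16A. It had 0.51, 0.43 and 0.88 FPKM at E10.5, then 11.63, 4.70 and 6.21 at E14.5, and 14.88, 16.06 and 15.65 at E16.5 (log2 fold change 4.86 ± 0.36 to E16.5, adjusted p = 8.5e-07). Its paralog *Sec16a* rose from 16.9 ± 1.51 to 24.1 ± 0.416 FPKM (0.66 ± 0.09, adjusted p = 6.1e-05). *Sec31a*, of the outer coat, was called at 1.08 ± 0.11 (adjusted p = 9.5e-06), and it measured 0.93 with library totals.

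Promoter sequences of RefSeq genes of GRCm38.p6, from 250 bases before to 50 after an annotated start, were searched on both strands for motifs of ER stress factors and CREB-type factors. The motifs were chosen with the values above known. Of the 10 genes 9 matched an entry, *Creb3l1* being the other. TGACGTGG, the core of the UPR element read by XBP1 and ATF6 and close to the sites of CREB3-type factors, occurred in 0.676% of 32851 windows. It occurred in 2 of the 9 members, *Sec23a* and *Sec24d*, and in *Sec16b* and *Kdelr3*, the genes with the largest changes of their lists. The shorter TGACGTG, which every TGACGTGG contains, occurred in 2.01% of windows and also in *Mia3* and *Hspa5*. The lines give 30 bases around each match, on the strand that reads the motif forward, with the motif in capitals, so that the shared core and the differing flanks can be compared.

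*Sec23a*, chr12:59011993-59012022, minus strand: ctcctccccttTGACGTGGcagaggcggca
*Sec24d*, chr3:123267459-123267488, plus strand: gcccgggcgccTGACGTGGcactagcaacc
*Sec16b*, chr1:157506741-157506770, plus strand: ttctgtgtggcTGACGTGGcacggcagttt
*Kdelr3*, chr15:79516367-79516396, minus strand of a plus-strand gene: tggccgcgcggTGACGTGGcggggcggcca
*Mia3*, chr1:183369633-183369662, minus strand: tgagcccttgcTGACGTGtcactcgcagca
*Hspa5*, chr2:34771922-34771951, plus strand: gggcgtagcaaTGACGTGagttgcggagga

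In *Sec24d*, *Kdelr3* and *Sec16b* the match begins 26, 30 and 44 bases before the start, counted on the strand of the gene, and in *Sec23a* it begins at base 7 after it. For *Sec24d* this is an annotated start inside the locus given above, which begins at 123264801. The window searched there was 123267246 to 123267545. In *Mia3* it begins 86 bases and in *Hspa5* 157 bases before the start. TGACGTGG was found in 3 of 15 genes of the COPII list, in *Kdelr3* and *Stx5a* of 17 cargo factors with an entry, in *Copb1* and *Copb2* of 8 COPI genes, and in *Adamts3* of 8 procollagen processing genes, which was called lower from E10.5 to E16.5 (-1.89 ± 0.18, adjusted p = 5.3e-06). None of the 15 ER chaperone genes with an entry held it. It was also absent from the 12 collagen modifying and 8 fibrillar collagen genes with an entry, whose lists are described below. The same was true of 6 CREB3 family and protease genes, 10 UPR genes, 11 ATF4 amino acid targets and 10 ER-associated degradation genes. Over the genes with an entry, 1.17% of those called higher from E10.5 to E16.5 held it, 0.689% of those called lower and 1.06% of all tested. A match is a description of the letters and not of binding.

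The ER stress element, CCAAT and CCACG with 9 bases of any kind between them, was searched in the same windows. It occurred in 0.119% of all windows and in 8 of the 15 ER chaperone genes with an entry (*Calr*, *Canx*, *Creld2*, *Dnajc3*, *Ero1b*, *Hsp90b1*, *Hspa5* and *Pdia6*), and in none of the COPII, COPI or cargo genes. The 250 bases before the *Hspa5* start are given to show it, with this element and the TGACGTG match in capitals. *Xbp1*, *Atf4*, *Ddit3*, *Creb3l2* and *Mia2* held none of these motifs, nor TGACGTCA (1.79% of windows) or the amino acid response core TGATGNAA (3.97%).

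*Hspa5*, chr2:34771840-34772089, plus strand: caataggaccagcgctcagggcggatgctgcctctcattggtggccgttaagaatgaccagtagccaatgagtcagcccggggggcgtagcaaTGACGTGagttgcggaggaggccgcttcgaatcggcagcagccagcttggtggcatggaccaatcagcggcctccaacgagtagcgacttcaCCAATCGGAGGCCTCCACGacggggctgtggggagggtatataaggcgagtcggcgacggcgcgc

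*Mia3* (338366, chromosome 1, 183326236 to 183369565) changed less than *Sec23a* and *Sec24d*. It had 18.84, 16.45 and 15.91 FPKM at E10.5, 19.30, 22.24 and 23.51 at E14.5, and 20.10, 23.65 and 21.60 at E16.5. The lowest corneal value lay close to the highest pNC value, and the corneal stages overlapped. *Mia3* rose by a log2 fold change of 0.50 ± 0.11 from E10.5 to E16.5 (adjusted p = 0.0019). The 0.33 ± 0.11 to E14.5 (adjusted p = 0.024) did not stay under 0.05 without E10.5 replicate 2 (0.085), E10.5 replicate 3 (0.081), E14.5 replicate 2 (0.053) or E14.5 replicate 3 (0.088).

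*Mia2* (chromosome 12, 59095582 to 59190220) was split in the annotation used for the files. Its current identifier held 1 count in each of 2 samples, 0.07 FPKM in E10.5 replicate 3 and in E16.5 replicate 2, and was absent from the files of the other samples, which was taken as 0. The older identifier, named Ctage5, holds transcripts that the reference assigns to *Mia2*, and it carried the signal. It had 21.98, 20.65 and 22.62 FPKM at E10.5, 23.57, 23.07 and 25.09 at E14.5, and 33.97, 29.03 and 29.88 at E16.5. E16.5 lay above both earlier stages, and the Ctage5 entry rose by 0.67 ± 0.09 from E10.5 (adjusted p = 4.2e-05) and by 0.54 ± 0.09 from E14.5 (adjusted p = 0.0014). Reads of exons shared by the long and short forms could have been assigned to either entry. The ratio of *Mia3* to the Ctage5 entry was 0.786 ± 0.0775, 0.907 ± 0.0772 and 0.710 ± 0.112 at the 3 stages, a difference that did not reach the threshold (exact permutation p = 0.0929).

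Of 20 entries for export and cargo factors, 19 were tested, and from E10.5 to E16.5 13 rose (35.2% of all genes did) and 3 fell (34.7%), with a median log2 fold change of 0.50. *Klhl12* and *Cul3*, which encode the ubiquitin ligase that enlarges COPII carriers in cultured cells, were among those that fell, *Cul3* from 45.5 ± 2.05 FPKM at E10.5 to 30.7 ± 0.0721 at E16.5 (-0.42 ± 0.08, adjusted p = 0.00091). The list had 4 called higher, a share near the 19.4% of all genes. *Kdelr3*, a receptor that returns escaped ER proteins, had 5.96, 4.64 and 5.99 FPKM at E10.5, then 63.35, 32.21 and 34.95, and 77.64, 84.30 and 86.89 at E16.5 (log2 fold change 4.05 ± 0.25, adjusted p = 3.2e-07). Its paralogs changed less: *Kdelr2* by 1.05 ± 0.11 (adjusted p = 6.8e-06) and *Kdelr1* by 0.86 ± 0.12 (adjusted p = 8.2e-05). *Lman1*, a cargo receptor, and *Stx5a*, a Golgi SNARE, were called at 1.03 ± 0.10 (adjusted p = 5.4e-06) and 1.02 ± 0.07 (adjusted p = 7.7e-07). Without a single library *Lman1* measured 0.96 (E16.5 replicate 2) or 0.99 (E10.5 replicate 2) and *Stx5a* 0.99 (E10.5 replicate 1), and library totals put *Kdelr2*, *Lman1* and *Stx5a* at 0.90, 0.88 and 0.87, under the 2-fold minimum.

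COPI carries ER proteins back from the Golgi. From E10.5 to E16.5, 8 of its 9 genes rose, where 35.2% of all genes did, with a median log2 fold change of 0.65. The list had 1 called higher, against 19.4% of all genes. The single called gene was *Copz2*, one of the paralogous zeta subunits, with 15.43, 17.33 and 15.10 FPKM at E10.5, 57.92, 34.62 and 43.55 at E14.5, and 82.50, 88.02 and 92.28 at E16.5 (2.60 ± 0.17, adjusted p = 3.9e-07). Its partner paralog *Copz1* had 90.6 ± 5.14 and 82.2 ± 0.481 FPKM (0.01 ± 0.08, adjusted p = 0.94). At E10.5 *Copz1* was the more abundant of the pair in every sample, and at E16.5 the values of the pair overlapped.

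The UPR members showed small differences next to these. *Xbp1* (22433, chromosome 11, 5520641 to 5525993), the factor activated by IRE1 splicing, had 45.57, 44.98 and 45.67 FPKM at E10.5, 55.80, 51.57 and 51.86 at E14.5, and 52.99, 58.07 and 59.26 at E16.5. It rose by a log2 fold change of 0.47 ± 0.08 from E10.5 to E16.5 (adjusted p = 0.00021). The smaller steps to E14.5 (0.21 ± 0.08, adjusted p = 0.035) and on to E16.5 (0.26 ± 0.08, adjusted p = 0.022) did not pass in every setting. The first had an adjusted p of 0.065 to 0.11 without any one of the E10.5 samples, 0.069 without E14.5 replicate 1 and 0.067 without E14.5 replicate 3. It also did not pass with DESeq2, DESeq2 size factors, no filter or replicate number as a block. The second measured 0.10 (adjusted p = 0.31) with library totals, and its adjusted p was 0.087 without E14.5 replicate 2, 0.053 without E14.5 replicate 3, 0.085 without E16.5 replicate 2 and 0.085 without E16.5 replicate 3. Nor did this second step pass with limma on log2(FPKM + 1) or log2(FPKM + 0.1). The gene table holds 1 value for the spliced and unspliced *Xbp1* transcripts together, so activation by splicing was not measured.

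*Atf4* (11911, chromosome 15, 80255184 to 80257545), whose protein level is set largely by translation, had 107.58, 103.64 and 91.13 FPKM at E10.5, 93.99, 77.61 and 92.52 at E14.5, and 101.97, 99.94 and 95.07 at E16.5. E10.5 and E16.5 overlapped, and the difference was 0.12 ± 0.10 (adjusted p = 0.3), or -0.03 with library totals. From E14.5 to E16.5 *Atf4* rose by 0.33 ± 0.10 (adjusted p = 0.027), which was 0.17 (adjusted p = 0.18) with library totals, and the adjusted p was 0.10 without E14.5 replicate 2, 0.079 without E16.5 replicate 1 and 0.083 without E16.5 replicate 2. This rise also did not pass with limma on log2(FPKM + 1) or log2(FPKM + 0.1). *Ddit3* (13198, chromosome 10, 127290793 to 127296291), the pro-apoptotic target of ATF4 also called CHOP, had 12.86, 13.64 and 10.05 FPKM at E10.5, 14.51, 10.21 and 11.77 at E14.5, and 12.56, 11.89 and 13.15 at E16.5. All 3 stages overlapped, with log2 fold changes of -0.02 ± 0.18 to E14.5 (adjusted p = 0.94) and 0.19 ± 0.17 to E16.5 (adjusted p = 0.36).

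*Hspa5* (14828, chromosome 2, 34772090 to 34776529), the most abundant of the 10 at every stage, had 461.84, 377.15 and 360.89 FPKM at E10.5. It had 351.55, 361.59 and 418.50 FPKM at E14.5, and 201.12, 232.15 and 234.15 at E16.5. The first 2 stages overlapped (log2 fold change -0.09 ± 0.13, adjusted p = 0.55), and every E16.5 sample lay below them. *Hspa5* fell by 0.70 on the log2 scale from E10.5 to E16.5 (SE 0.13, adjusted p = 0.00058) and by 0.60 from E14.5 (SE 0.13, adjusted p = 0.0053), below the 2-fold minimum in both.

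Of the 16 other ER chaperone and folding enzyme genes, all tested, 8 fell (34.7% of all genes did), 2 rose (35.2%) and 6 did not pass from E10.5 to E16.5. The median log2 fold change was -0.22. *Sdf2l1*, a partner of HSPA5, was the single gene called lower, where 15.4% of all genes were, with 28.94, 23.86 and 27.62 FPKM at E10.5 and 5.41, 6.38 and 7.07 at E16.5 (-1.94 ± 0.17, adjusted p = 2.1e-06). *P4hb*, which serves both as a disulfide isomerase and as a subunit of collagen prolyl 4-hydroxylase, rose from 251 ± 16.4 to 376 ± 29.6 FPKM (0.73 ± 0.12, adjusted p = 0.00019), and the other gene that rose was the cochaperone *Dnajc3*. The summed FPKM of the list, *Hspa5* included, was 0.827 ± 0.0599 times its E10.5 mean at E16.5. The sum was 2534 ± 215 FPKM at E10.5 and 2094 ± 152 at E16.5, and *Hspa5* in it 400 ± 54.2 and 222 ± 18.5. Such sums are scaled to library totals, with which the median log2 fold change of all genes was -0.15 here.

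Among UPR sensors and transcription factors, 10 of 12 genes were tested, and from E10.5 to E16.5 4 rose (35.2% of all genes did) and 1 fell (34.7%). The list had 2 called higher, a share near the 19.4% of all genes, and 1 called lower, against 15.4%. Its median log2 fold change was 0.16. The sensor genes *Eif2ak3* (PERK) and *Ern1* (IRE1) were called, each at 1.06 (SE 0.11, adjusted p = 7.2e-06, and SE 0.14, adjusted p = 4.1e-05). *Ern1* measured 0.97 without E10.5 replicate 1, *Eif2ak3* came out just under the 2-fold minimum without E10.5 replicate 3, and library totals put both at 0.91. *Atf3*, a stress-induced factor, had 10.42, 4.07 and 1.78 FPKM in the E10.5 samples and 0.69, 0.74 and 0.40 at E16.5 (-2.98 ± 0.82, adjusted p = 0.0074), or -2.1 (adjusted p = 0.038) without E10.5 replicate 1. The pools of E10.5 were far apart for this gene, with replicate 1 highest.

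ATF4 also drives amino acid supply, and its targets of that kind moved in different directions. Of 11 tested genes of 12, 3 rose (35.2% of all genes did) and 2 fell (34.7%) from E10.5 to E16.5, with a median log2 fold change of -0.0. The list had 1 called higher (19.4% of all genes were), and 2 without E10.5 replicate 1 or without E16.5 replicate 2. It had 2 called lower, against 15.4% of all genes. *Psat1*, of serine synthesis, went from 55.9 ± 4.69 FPKM at E10.5 to 348.78, 364.89 and 377.67 FPKM in the E14.5 samples and 227 ± 2.04 at E16.5 (2.17 ± 0.09 from E10.5 to E16.5, adjusted p = 4.8e-08). The cystine transporter gene *Slc7a11* (-1.86 ± 0.12, adjusted p = 4.6e-07) and the asparagine synthetase gene *Asns* (-1.51 ± 0.12, adjusted p = 1.7e-06) fell. For ER-associated degradation, all 12 genes were tested, 8 rose (35.2% of all genes did) and 1 fell (34.7%), with a median of 0.61. *Selenos* (1.55 ± 0.16, adjusted p = 7e-06) and *Os9* (1.29 ± 0.13, adjusted p = 5.4e-06) were called, 2 of the 12 where 19.4% of all genes were called higher.

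**Figure D4:**
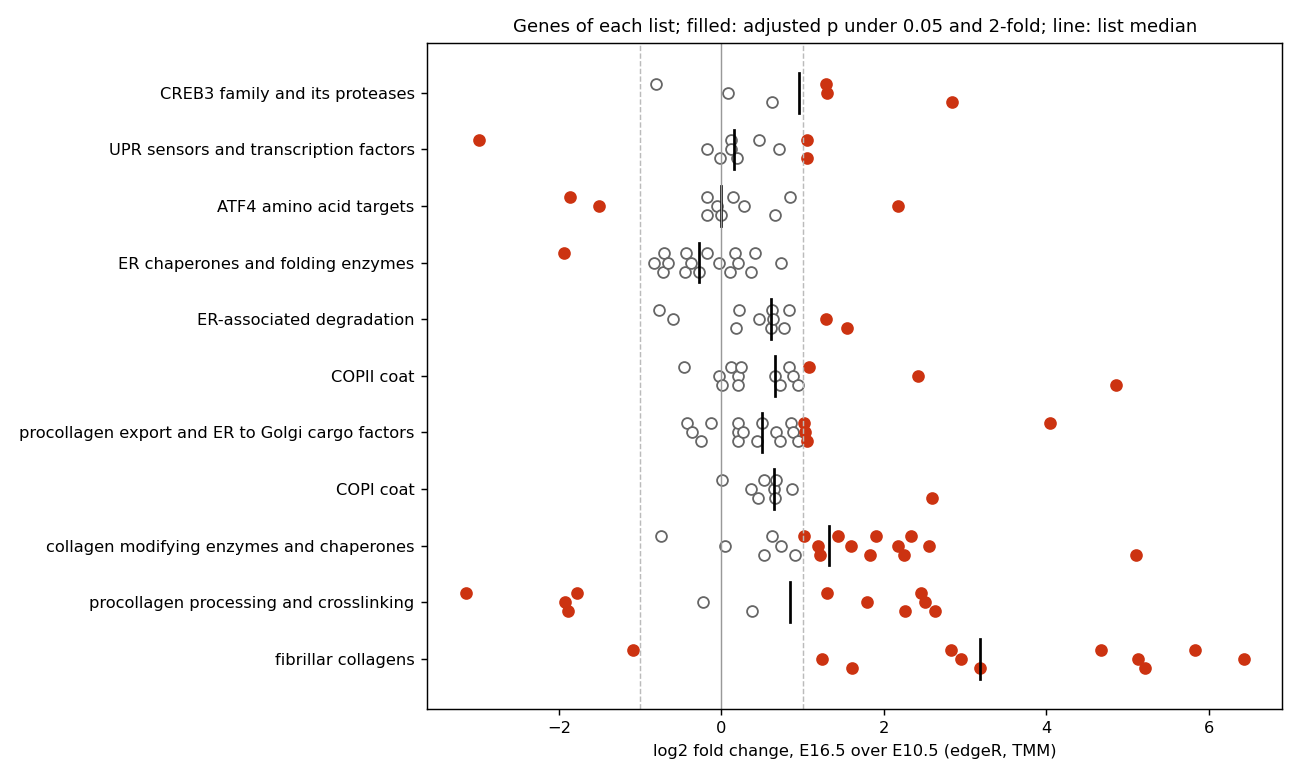
Log2 fold change from E10.5 to E16.5 (x axis, edgeR with TMM scaling) of each tested gene of 11 lists (rows), without *Creb3l1*; filled red points were called, black lines are list medians, dashed lines mark a 2-fold change, and the vertical offset within a row carries no meaning. ER chaperones, *Hspa5* included, have their median at -0.27, the coats and cargo factors between 0.5 and 0.66 with a few genes far to the right, and the fibrillar collagens the highest median, 3.19.

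The cargo and the enzymes specific to it rose much more than the coat. Of 11 fibrillar collagen genes, all tested, 10 were called higher from E10.5 to E16.5 (19.4% of all genes were), with a median log2 fold change of 3.19. The other gene, *Col2a1*, a cartilage collagen, was called lower (15.4% of all genes were). *Col2a1* lost its call without E10.5 replicate 1 or without E16.5 replicate 1, when 0 genes of the list were called lower by edgeR. *Col1a1*, a chain of type I collagen, had 71.91, 60.57 and 34.98 FPKM at E10.5, 1548.49, 603.88 and 1271.41 at E14.5, and 3521.56, 5029.03 and 4431.49 at E16.5 (6.43 ± 0.43, adjusted p = 4.4e-07). *Col24a1* (5.83 ± 0.40), *Col5a1* (5.22 ± 0.30) and *Col1a2* (5.13 ± 0.31) followed, with adjusted p of 5.2e-07, 1.9e-07 and 2.6e-07. E14.5 replicate 2, the lowest E14.5 sample for *Creb3l1*, was also lowest of its stage for these 4 genes and for *Sec16b*, *Kdelr3* and *Copz2*, and it had the lowest marker sums of epithelium and keratocytes, 659 and 1347 FPKM.

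Within a sample, *Col1a1* per *Sec23a* went from 2.57 ± 0.846 in pNC to 29.4 ± 10.8 in E14.5 cornea and 115 ± 15.9 in E16.5 cornea. Per *Sec24d* it went from 5.3 ± 1.0 through 28.0 ± 10.3 to 86.7 ± 9.43, and per *Mia3* from 3.23 ± 0.898 through 53.8 ± 26.5 to 198 ± 19.8. The mean log2 ratios thus differed by 5.54, 4.04 and 5.97 between E10.5 and E16.5, with the smallest rise against *Sec24d*. All 3 ratios differed between stages (exact permutation p = 0.00357 each, 0.00402 adjusted).

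Collagen modifying enzymes and chaperones stood between the coat and the cargo. Of 18 genes, all tested, 16 rose (35.2% of all genes did) and 1 fell (34.7%) from E10.5 to E16.5. The list had 12 called higher, against 19.4% of all genes, and a median log2 fold change of 1.33. *Colgalt2*, a collagen galactosyltransferase, went from 1.21 ± 0.215 to 37.7 ± 2.95 FPKM (5.10 ± 0.53, adjusted p = 8.9e-06). *P3h1* (2.56 ± 0.17, adjusted p = 4e-07) and *Crtap* (2.33 ± 0.17, adjusted p = 7.6e-07), partners in the prolyl 3-hydroxylase complex, rose together, as did the lysyl hydroxylase gene *Plod1* (2.25 ± 0.18, adjusted p = 1.4e-06). *Plod2*, the lysyl hydroxylase of the telopeptides, fell by 0.74 on the log2 scale (SE 0.10, adjusted p = 5.1e-05). *Serpinh1*, the procollagen-specific chaperone, had 570.84, 524.99 and 482.27 FPKM at E10.5 and 1160.03, 1312.86 and 1385.46 at E16.5 (1.44 ± 0.17, adjusted p = 1.9e-05).

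Against the general chaperone *Hspa5*, the collagen chaperone and the coat genes stood higher at each stage. The ratio of *Serpinh1* to *Hspa5* was 1.32 ± 0.079 in pNC, 2.26 ± 0.654 in E14.5 cornea and 5.78 ± 0.131 in E16.5 cornea, a 4.38-fold change. That of *Sec24d* to *Hspa5* changed 8.7-fold, from 0.0257 ± 0.00212 to 0.223 ± 0.0029, and that of *Sec23a* to *Hspa5* 3.1-fold, from 0.0549 ± 0.0063 to 0.169 ± 0.00714. In each the 3 stages did not overlap (exact permutation p = 0.00357, 0.00402 adjusted).

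For procollagen processing and crosslinking, 12 of 13 genes were tested. From E10.5 to E16.5, 6 were called higher (19.4% of all genes were) and 4 lower (15.4%). *Adamts2*, the procollagen N-proteinase gene (2.63 ± 0.25, adjusted p = 5e-06), *Loxl1* (2.51 ± 0.24, adjusted p = 4.3e-06), the lysyl oxidase gene *Lox* (2.46 ± 0.13, adjusted p = 1.1e-07) and *Pcolce* (1.79 ± 0.13, adjusted p = 6.4e-07) led those that rose. The 4 lower genes, *Tll1*, *Adamts3*, *Pcolce2* and *Loxl4*, had means of at most 2.48 FPKM at every stage.

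**Figure D5:**
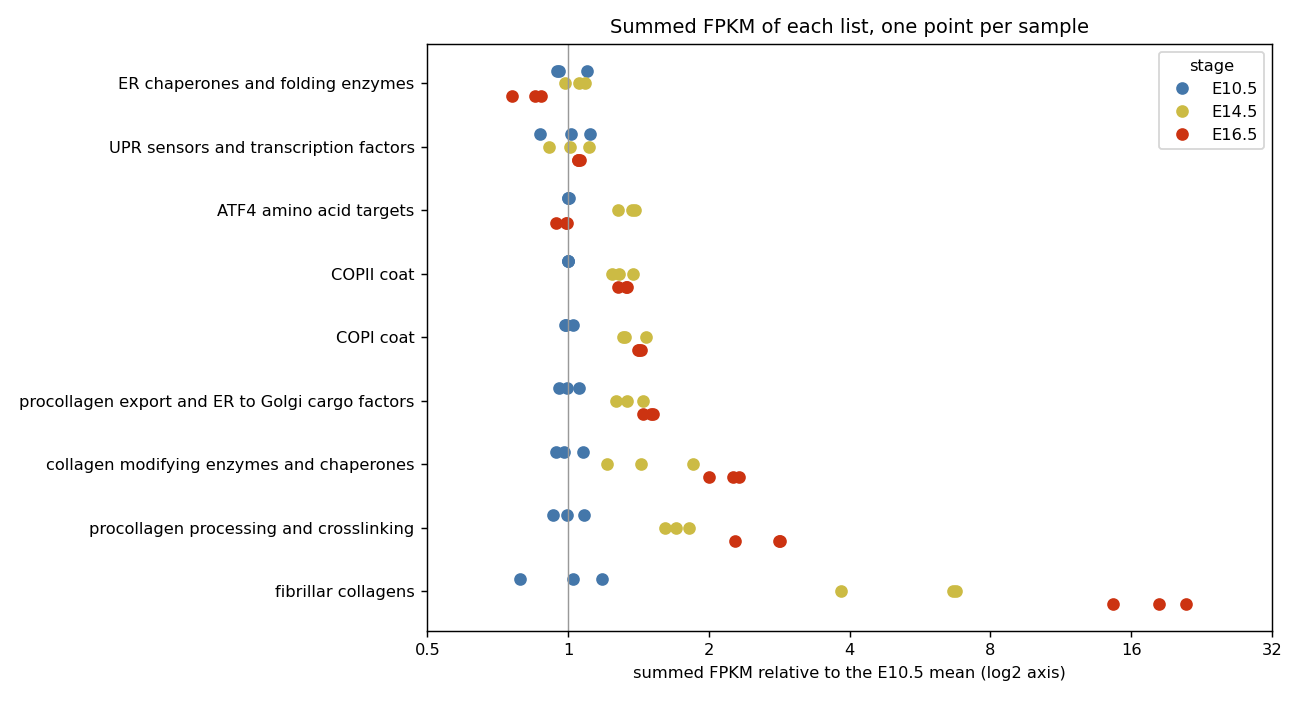
Summed FPKM of the genes of 9 lists in each sample relative to the mean of the E10.5 samples (x axis, log2 scale), coloured by stage. The sums are scaled to library totals. At E16.5 the ER chaperones lie at 0.827, the COPII coat at 1.32, the COPI coat at 1.42, the modifying enzymes at 2.19 and the fibrillar collagens at 17.9 on average.

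Summed over each list, FPKM at E16.5 stood at 1.32 ± 0.0333 times the E10.5 mean for COPII, 1.42 ± 0.0106 for COPI, 1.49 ± 0.0366 for export and cargo factors, 2.19 ± 0.167 for modifying enzymes and 17.9 ± 3.15 for fibrillar collagens. COPII and COPI sums had reached 1.3 ± 0.0689 and 1.37 ± 0.085 at E14.5, whereas the collagen sum stood at 5.74 ± 1.65 there. These sums are scaled to library totals, which lowers E16.5 values against both earlier stages. The median log2 fold change of all genes was then -0.15 from E10.5 and -0.19 from E14.5. With TMM, 6 of 15 COPII genes rose and 1 fell from E14.5 to E16.5, where 17.5% of all genes did in each direction. Of 9 COPI genes, 3 rose and 0 fell. Since *Creb3l1* and its targets are best known from bone, osteoblast and cartilage markers were read beside these sums. They summed to 19.9 to 21.1 FPKM in pNC, 5.12 to 5.65 in E14.5 cornea and 6.22 to 7.05 in E16.5 cornea, and from E10.5 to E16.5 1 of the 4 tested was called higher and 3 lower. Most of the pNC sum, 20.5 ± 0.643 FPKM on average, was *Sox9*, which the paper counts among its neural crest genes enriched in pNC. *Sox9* had 13.6 ± 1.0 FPKM in pNC and 2.03 ± 0.531 in E16.5 cornea. *Ibsp* was absent from the files of all corneal samples, and *Sp7* had 0.1 ± 0.0866 FPKM in E14.5 and 0.0167 ± 0.0289 in E16.5 cornea. *Runx2*, the early osteoblast transcription factor, was the one called higher, with 1.76, 1.05 and 1.45 FPKM in pNC and 3.13, 4.06 and 4.16 in E16.5 cornea (1.58 ± 0.20, adjusted p = 4.4e-05).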

How the data were processed

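RNA was sequenced from 9 samples, 3 per stage. The authors aligned reads and estimated gene values with RSEM; the submitters' processing notes name Bowtie2, HISAT, RSEM and GRCm38, with versions not given in the sources used here. The deposited expected counts per gene were rounded to whole numbers and tested. The deposited FPKM values, scaled by the authors to transcript length and library total, were used for levels and ratios. A gene missing from a sample's file was taken as 0. Of 19369 identifiers, 19312 matched a symbol by identifier, 11 by transcript and 46 had none.

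Counts were tested with edgeR 4.0.16 in R 4.3.3 (TMM scaling, filterByExpr, quasi-likelihood test, one model over the 9 samples). The study used NOISeq on normalized values, which was run as an alternative beside DESeq2 1.42.0, limma 3.58.1, library totals, DESeq2 size factors, no filter, no fold minimum, a replicate block and leaving out each sample. The edgeR procedure was tested on simulated data. Ratios, exact permutation tests and promoter searches were made in Python 3.11.15 with scipy 1.17.1. Promoters were RefSeq windows of GRCm38.p6. Whether pools of a stage shared litters is not stated, so p-values measure the spread between pools. Total counts per sample, 8745161 to 9069023, set the precision of low genes, and counting error is only part of the spread.

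The 10 genes and the lists were chosen with earlier results of these data known. Values are given for all 10 genes and their paralogs, for up to 4 called genes per list with the largest change from E10.5 to E16.5 and a mean of at least 5 FPKM at some stage, and for the 5 genes most correlated with *Creb3l1*. Other genes named (among them *Mbtps1*, *Mbtps2*, *Sec16a*, *Cul3*, *Klhl12*, *Kdelr1*, *Copz1*, *P4hb*, *Dnajc3*, *Plod2*, *Serpinh1*, *Col2a1*, *Runx2* and the low genes of the processing list) were chosen after their values were seen. The pairing of replicate numbers was checked by the correlation of deviations from stage means.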

Additional observations from a re-analysis of the deposited data

How the results depend on the processing

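For the call with its 2-fold minimum, 820 of 879 gene values under the alternatives kept their direction and their side, 29 lost the call, 13 passed only there, 4 moved and 13 changed sign. The 4 that moved were values of *Creb3l1*, which was judged by its spread between pools and not by a call. For the adjusted p alone, of 728 values with one (*Creb3l1* left out), 683 kept direction and side, 32 lost it and 2 gained it. The other 11 changed sign but not side. From E10.5 to E14.5, from E10.5 to E16.5 and from E14.5 to E16.5, 3191, 5144 and 1732 genes were called. Without a fold minimum these were 8328, 10316 and 5164. In the first and last comparison, limma on log2(FPKM + 1) called 2022 and 992 genes and NOISeq 1476 and 782. Leaving out 1 sample gave 2985 to 3450, 5115 to 5237 and 1322 to 2363. With library totals the higher share of called genes was 63.8%, 48.2% and 39.9%, against 63.1%, 55.6% and 53.3%. *Atf4* from E10.5 to E16.5 was -0.03 with library totals and NOISeq and -0.02 with limma under both pseudocounts, and *Sec23a* from E14.5 to E16.5 likewise -0.03 and -0.02. Both had missed the threshold with TMM. Without 1 sample, *Ddit3* from E10.5 to E14.5 ranged from -0.15 to 0.10, *Hspa5* there from -0.20 to 0.02, and *Creb3l2* from E14.5 to E16.5 from -0.16 to 0.08. The cause was not tested. Of the 9 ratios, 8 passed under every alternative run.

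Samples were not paired by their replicate numbers: deviations of same-numbered samples had a mean correlation of -0.034, and 2 of 9 samples correlated best with their own number. With the replicate block 3167, 5140 and 1722 genes were called, and *Xbp1* from E10.5 to E14.5 had an adjusted p of 0.066 by edgeR.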
